A study of Homo sapiens with 18 samples.

Results

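AMP-activated protein kinase (AMPK) was described here through 8 genes: its catalytic subunits PRKAA1 and PRKAA2, its scaffolding subunits PRKAB1 and PRKAB2, its regulatory subunits PRKAG1 and PRKAG2, and 2 kinases that activate it, STK11 (LKB1) and CAMKK2. The genes were chosen by name, as the probe sets whose only gene symbol was one of these, and all 8 were found among the 18417 genes with such a probe set. Each was read by 1 probe set that carried no other symbol. The cells were NCI-H1299, a non-small cell lung carcinoma line without p53, transfected transiently by lipofection, sorted for green fluorescence and lysed for total RNA 40 h after transfection. The RNA was measured on 18 Affymetrix Gene arrays in 2 sets of 9, with 3 arrays per group. The first set held ΔNp53:WTp53, wild-type p53 (WTp53) and empty vector in experiments 0, 4 and 5, which the series calls independent transfections. ΔNp53 is a naturally occurring isoform of the tumour suppressor p53 that lacks its N terminus, and the labels do not state how it was combined with the wild-type protein in the ΔNp53:WTp53 group, nor to what WTp53 was tethered in the tethered group. The second set held tethered WTp53, WTp53 and empty vector in the experiments labelled d, e and f; these are described as controls and not said to be separate transfections, so p-values there measure the spread between those arrays, which may be technical. All groups shared the pIRES-2EGFP vector, the p53-null background and the sort. The transfection field of the tethered arrays reads ΔNp53:WTp53, against their titles and descriptions, and the titles were used here. As a model, the groups are forced expression in 1 carcinoma line that normally has no p53.

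AMPK is a heterotrimer that senses falling cellular energy. AMP and ADP bind its γ subunit, the β subunit holds the complex together, and the catalytic α subunit becomes active once an upstream kinase phosphorylates its activation loop: LKB1 under energy stress, CaMKK2 when calcium rises. Active AMPK slows mTORC1 and lipid synthesis and favours autophagy and mitochondrial renewal. PRKAB1 and the sestrins SESN1 and SESN2 are described targets of p53, through which p53 is known to act on AMPK and mTORC1. The series asked how ΔNp53 changes expression beside WTp53, with the mTOR pathway and mitochondria named in its title.

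Values are log2 intensities, and a difference of 1 is a doubling. The sets had been normalized apart (array medians ran between 4.885 and 4.966, and between 7.01 and 7.07), so levels were compared only within a set. The spread between replicates was wider in the first set, with a median SD over genes of 0.151 for ΔNp53:WTp53, 0.109 for WTp53 and 0.104 for vector, against 0.069 for tethered WTp53, 0.049 for WTp53 and 0.056 for vector in the second set. CDKN1A, the p21 gene and a textbook p53 target, checked the labels: it read 8.46, 9.18 and 9.25 with ΔNp53:WTp53 and 9.76, 10.00 and 9.92 with WTp53, against 5.86, 4.90 and 5.05 with vector (experiments 0, 4 and 5), and 11.77 to 11.83 with tethered WTp53 and 11.70 to 11.72 with WTp53, against 8.44 to 8.67 with vector in the second set. In experiment 0 the gap between ΔNp53:WTp53 and vector was the narrowest. KRT8, KRT18 and VIM, expected in this line, all lay at or above the 94.7th percentile of genes, and 0 of 6 markers of lung epithelium (SFTPB, SFTPC, NKX2-1, SCGB1A1, EPCAM, CDH1) passed the median gene in either set. Of 5 leukocyte and 5 fibroblast or endothelial markers, only TYROBP passed it in both sets (52.2nd and 55.7th percentile). COL1A1 passed it only in the second set (51.8th, against 49.8th in the first). Against vector, 1, 1, 3 and 1 of the 6 lung epithelium markers passed as higher with ΔNp53:WTp53, WTp53, tethered WTp53 and WTp53 of the second set, with summed log2 intensities of 24.2 and 24.5 against 22.4 in the first set and 37.8 and 37.4 against 37.1 in the second. Of the 5 leukocyte markers 0, 2, 0 and 1 passed as higher and 0, 0, 1 and 1 as lower (sums of 21.5 and 22.7 against 21.6, and 33.0 and 33.4 against 33.3), of the 5 fibroblast and endothelial markers 0 passed in each (19.5 and 20.1 against 19.3, and 30.1 and 29.9 against 30.0), and of KRT8, KRT18 and VIM 1, 0, 2 and 2 were higher (31.0 and 30.7 against 30.3, and 35.3 and 35.3 against 34.6). The part of these markers in the results was not tested. In a bulk sample, fewer expressing cells and less RNA per cell cannot be told apart.

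PRKAB1 and STK11 rose, and PRKAA2 and PRKAA1 fell, with every p53 construct in both sets. By limma with Benjamini-Hochberg adjustment over 18417 genes at 0.05, 5 of 8 members passed for ΔNp53:WTp53 against vector (2 higher, 3 lower), where 36.1% of all genes passed (15.7% higher, 20.3% lower). For WTp53 against vector in the first set 4 of 8 passed (2 higher, 2 lower), beside 31.8% of all genes (15.2% higher, 16.6% lower). For tethered WTp53 against vector 7 of 8 passed (3 higher, 4 lower), beside 47.8% of all genes (21.6% higher, 26.2% lower), and for WTp53 against vector in the second set 5 of 8 (3 higher, 2 lower), beside 36.8% (17.9% higher, 18.9% lower). Arrays did not overlap between construct and vector for 6, 5, 7 and 6 of the 8 members in these comparisons, beside 45.6%, 48.8%, 52.3% and 47.2% of all genes. All 8 members were brighter than the median gene (54.8th to 97.9th percentile of level in the first set, 60.8th to 97.5th in the second). All genes include dim ones. With the dimmest 25% left out, 6629 of 13813, 5786 of 13813, 8499 of 13815 and 6604 of 13815 genes passed in these comparisons. The part of brightness in the differences was not tested. With backgrounds this high, the counts say little about the members as a group. Their median absolute difference was 0.62, 0.37, 0.34 and 0.33 in these comparisons, in that order, against 0.21, 0.20, 0.14 and 0.11 over all genes, while the signed medians were near 0 (−0.08, −0.07, −0.07 and 0.04, against 0.01, 0.02, 0.00 and −0.02), since members moved in both directions.

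**Figure D1:**
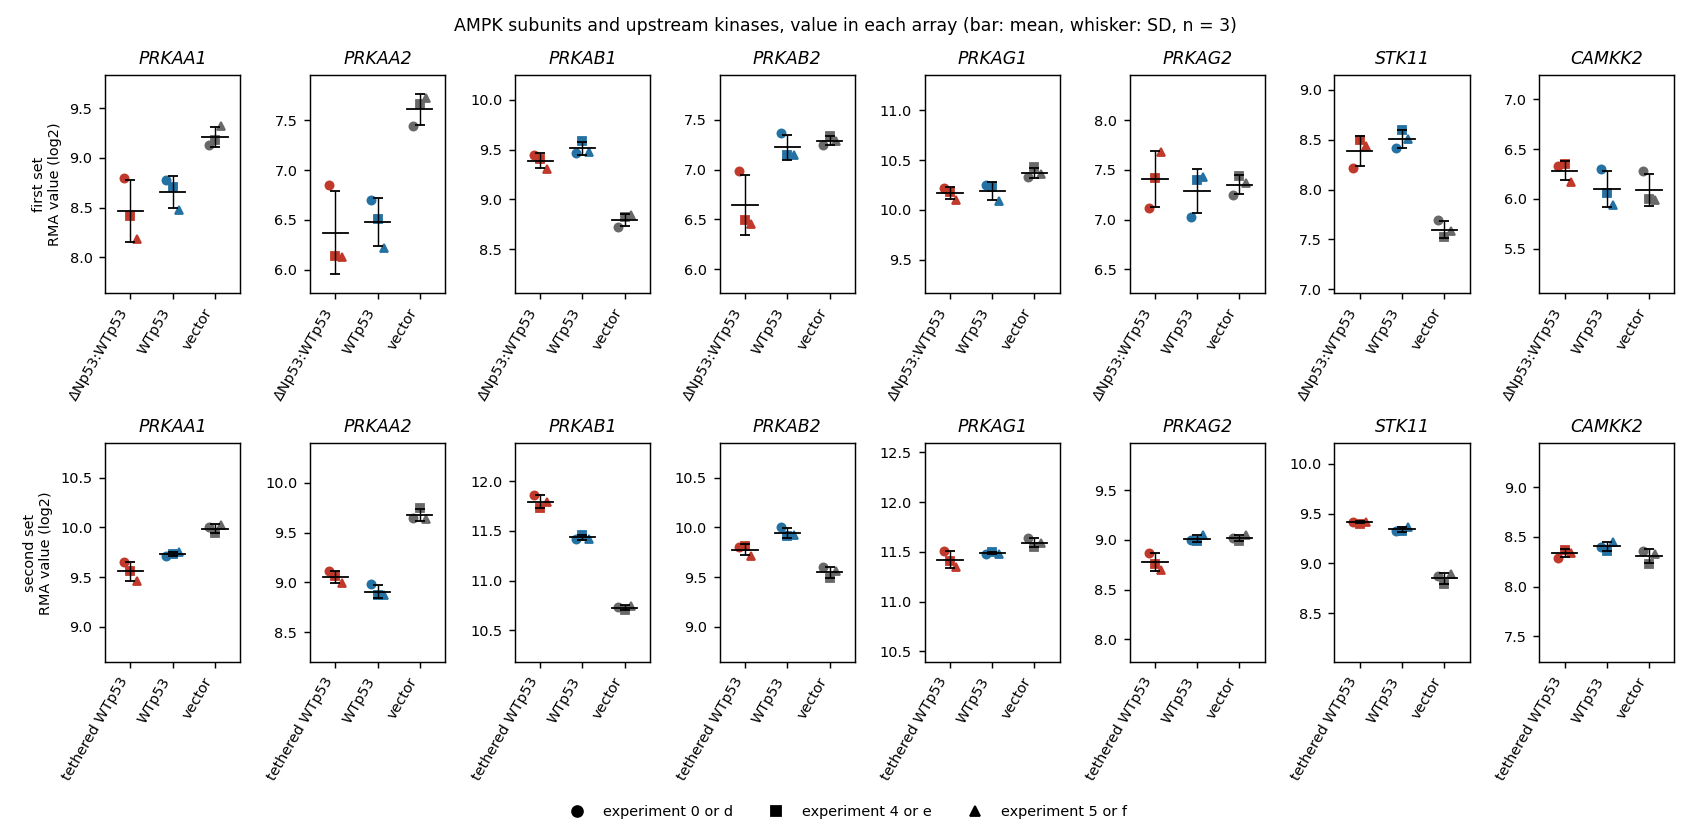
Log2 intensity of each of the 8 genes on every array (points, shaped by experiment), with group means (bars) and SD (whiskers, n = 3), in the first set (ΔNp53:WTp53, WTp53, vector) and the second set (tethered WTp53, WTp53, vector). PRKAB1 and STK11 sit above their vector arrays and PRKAA1 and PRKAA2 below them with each p53 construct, while CAMKK2 groups overlap; axes span the same range but are placed per gene, and levels cannot be compared between the sets.

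The promoters of the 5 genes whose greatest difference from vector, over the 4 comparisons, was largest in size are shown because members that rose and members that fell can be read side by side. Each is the 250 bases before a RefSeq transcript start on GRCh38.p14, 5′ to 3′ on the gene's strand. For PRKAB1 and PRKAA1 the start used lies inside the gene span given below, which begins at 119667952 and, on the minus strand, at 40798374. Their windows thus lie partly within the gene and are not wholly upstream of it. Capitals mark the GC box letters GGGCGG or CCGCCC and the CCAAT box letters CCAAT or ATTGG, which cover both strands. PRKAB1 and STK11 are the genes that rose, PRKAA2 and PRKAA1 those that fell, and PRKAB2 the gene whose ΔNp53:WTp53 arrays lay below all other arrays of their set. The windows are chr12:119667883-119668132 (plus strand) for PRKAB1, chr19:1205528-1205777 (plus strand) for STK11, chr1:56645064-56645313 (plus strand) for PRKAA2, chr5:40798178-40798427 (minus strand) for PRKAA1 and chr1:147172471-147172720 (minus strand) for PRKAB2.
PRKAB1: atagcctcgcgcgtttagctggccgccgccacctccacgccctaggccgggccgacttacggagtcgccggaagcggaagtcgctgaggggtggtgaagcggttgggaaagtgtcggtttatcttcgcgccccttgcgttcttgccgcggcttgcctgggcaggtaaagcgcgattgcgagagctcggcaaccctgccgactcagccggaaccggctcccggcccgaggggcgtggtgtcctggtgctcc
STK11: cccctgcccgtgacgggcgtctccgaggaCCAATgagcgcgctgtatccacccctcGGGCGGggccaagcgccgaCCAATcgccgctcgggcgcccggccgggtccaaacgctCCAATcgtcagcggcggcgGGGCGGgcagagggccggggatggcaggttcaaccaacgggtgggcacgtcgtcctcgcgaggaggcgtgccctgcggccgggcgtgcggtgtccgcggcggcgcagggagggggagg
PRKAA2: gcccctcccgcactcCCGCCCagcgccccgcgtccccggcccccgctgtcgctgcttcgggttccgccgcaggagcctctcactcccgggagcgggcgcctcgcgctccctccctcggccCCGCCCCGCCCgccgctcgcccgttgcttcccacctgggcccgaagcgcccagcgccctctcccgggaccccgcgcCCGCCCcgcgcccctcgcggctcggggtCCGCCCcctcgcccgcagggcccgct
PRKAA1: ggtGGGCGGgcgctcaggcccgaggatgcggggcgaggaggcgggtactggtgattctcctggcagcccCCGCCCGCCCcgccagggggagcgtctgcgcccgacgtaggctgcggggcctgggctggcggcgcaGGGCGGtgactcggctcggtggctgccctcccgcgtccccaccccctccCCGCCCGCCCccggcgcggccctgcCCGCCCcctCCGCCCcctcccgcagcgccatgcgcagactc
PRKAB2: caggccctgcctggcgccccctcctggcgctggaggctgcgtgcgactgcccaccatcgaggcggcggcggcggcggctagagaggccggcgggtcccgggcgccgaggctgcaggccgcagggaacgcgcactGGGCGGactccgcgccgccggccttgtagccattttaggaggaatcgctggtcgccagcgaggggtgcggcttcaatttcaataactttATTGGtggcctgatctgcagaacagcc

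The PRKAB1 window was 67.6% G or C and held 0 GC box and 0 CCAAT matches, and the STK11 window (76.0% G or C) held 2 and 3. The PRKAA2 window (83.2% G or C) held 5 GC box matches and 0 CCAAT matches, the PRKAA1 window (80.8%) 8 and 0, and the PRKAB2 window (69.6%) 1 and 1. Of 35116 RefSeq windows of this length, 42.6% held a GC box match and 32.0% a CCAAT match. The p53 consensus decamer, searched by its degenerate letters on both strands, was in 0 of the 12 windows of the 8 genes and in 5.6% of all windows. A match or its lack describes these letters only and says nothing of binding.

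Of the catalytic subunits, PRKAA2 (α2, chromosome 1, 56645314 to 56715335, GRCh38.p14) fell furthest. Its log2 intensity was 6.85, 6.14 and 6.13 with ΔNp53:WTp53 and 6.70, 6.51 and 6.22 with WTp53, against 7.44, 7.66 and 7.73 with vector. Every p53 array lay below every vector array, and the ΔNp53:WTp53 array of experiment 0 was the highest of the p53 arrays. The difference from vector was −1.23 ± 0.20 (SE, n = 3 each, limma adjusted p = 0.000985) for ΔNp53:WTp53, which is 2.35-fold lower, and −1.13 ± 0.20 (adjusted p = 0.00167) for WTp53. Within experiments 0, 4 and 5 the ΔNp53:WTp53 difference was −0.59, −1.52 and −1.59. PRKAA2 in the second set read 9.11, 9.06 and 8.99 with tethered WTp53 and 8.98, 8.87 and 8.87 with WTp53, against 9.65, 9.75 and 9.64 with vector. The groups again did not overlap with vector, and the differences were −0.63 ± 0.05 (limma adjusted p = 1.98e-06) for tethered WTp53 and −0.77 ± 0.05 (adjusted p = 9.06e-07) for WTp53. The share of all genes that moved further than PRKAA2 from vector was 4.87% with ΔNp53:WTp53, 5.09% with WTp53, 11.2% with tethered WTp53 and 3.52% with WTp53 in the second set. In that order it was 15%, 20.2%, 20.3% and 24% for PRKAA1, 20.8%, 13.5%, 3.58% and 4.4% for PRKAB1, and 13.5%, 8.66%, 13.7% and 9.58% for STK11. With experiment 4 left out the adjusted p of PRKAA2 for ΔNp53:WTp53 was 0.0535 (difference −1.09), and with experiment 5 left out that for WTp53 in the first set was 0.0504 (−0.95).

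PRKAA1 (α1, chromosome 5, 40759389 to 40798374), the more widely expressed catalytic isoform, fell less. It read 8.80, 8.42 and 8.18 with ΔNp53:WTp53 and 8.78, 8.71 and 8.48 with WTp53, against 9.13, 9.18 and 9.32 with vector, so that the p53 and vector arrays were separate. The differences were −0.74 ± 0.15 (limma adjusted p = 0.0035) for ΔNp53:WTp53 and −0.55 ± 0.15 (adjusted p = 0.0179) for WTp53. Second-set PRKAA1 values were 9.65, 9.56 and 9.46 with tethered WTp53 and 9.71, 9.73 and 9.75 with WTp53, against 10.00, 9.94 and 10.02 with vector. All 6 p53 arrays were below the 3 vector arrays, by −0.43 ± 0.05 (limma adjusted p = 3.49e-05) for tethered WTp53 and −0.26 ± 0.05 (adjusted p = 0.0023) for WTp53. In the first set the ΔNp53:WTp53 call was lost without experiment 4 or 5 (adjusted p = 0.0871 and 0.057), and the WTp53 call without either of them or without the WTp53 or the vector array of experiment 5 (0.0773 and 0.0711). The WTp53 call of the second set was lost when both sets shared a spread (0.152).

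The α subunits fell unequally, taken within each array. PRKAA2 minus PRKAA1 was −1.95, −2.28 and −2.05 with ΔNp53:WTp53 and −2.09, −2.20 and −2.26 with WTp53, against −1.69, −1.52 and −1.59 with vector, a shift of −0.49 and −0.58 in the group means. In the second set it was −0.54, −0.50 and −0.47 with tethered WTp53 and −0.73, −0.86 and −0.88 with WTp53, against −0.35, −0.19 and −0.38 with vector, a shift of −0.20 and −0.52. No p53 array reached the vector values in either set. The value itself joins 2 probe sets of unlike brightness, so only its change between groups can be read, and no test was made of it.

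PRKAB1, the β1 scaffold (chromosome 12, 119667952 to 119681619), rose with every construct. It read 9.45, 9.41 and 9.31 with ΔNp53:WTp53 and 9.47, 9.59 and 9.48 with WTp53, against 8.72, 8.82 and 8.84 with vector. The nearest p53 array lay well above the highest vector array, and the differences were 0.60 ± 0.08 (limma adjusted p = 0.00046) and 0.72 ± 0.08 (adjusted p = 0.000185), or 1.51-fold and 1.65-fold. Second-set PRKAB1 values were 11.86, 11.73 and 11.79 with tethered WTp53 and 11.42, 11.46 and 11.42 with WTp53, against 10.73, 10.70 and 10.75 with vector. The 3 groups were apart from each other, in the order tethered WTp53, WTp53, vector, with differences from vector of 1.07 ± 0.04 (2.09-fold, limma adjusted p = 1.18e-08) and 0.71 ± 0.04 (1.63-fold, adjusted p = 5.32e-07). The WTp53 effect was close in size in both sets on the log2 scale, and its difference between them was 0.01 with a 95% interval from −0.19 to 0.21. The sets were normalized apart, and 13.5% of all genes moved further than PRKAB1 with WTp53 in the first set, against 4.4% in the second.

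PRKAB2, the β2 scaffold (chromosome 1, 147155106 to 147172470), did not rise with PRKAB1 in the first set and rose less than it in the second. It read 6.99, 6.49 and 6.45 with ΔNp53:WTp53 and 7.37, 7.15 and 7.15 with WTp53, against 7.25, 7.34 and 7.29 with vector. ΔNp53:WTp53 arrays were below all arrays of the other groups, while WTp53 and vector arrays overlapped. The difference from vector was −0.65 ± 0.14 (limma adjusted p = 0.00512) for ΔNp53:WTp53 and −0.07 ± 0.14 (adjusted p = 0.757, 95% interval −0.38 to 0.24) for WTp53. The ΔNp53:WTp53 call was lost without experiment 4 (adjusted p = 0.126) or 5 (0.1). PRKAB2 in the second set read 9.80, 9.81 and 9.71 with tethered WTp53 and 10.00, 9.91 and 9.92 with WTp53, against 9.60, 9.49 and 9.56 with vector. Here both constructs lay above vector and WTp53 above tethered WTp53, by 0.22 ± 0.05 (limma adjusted p = 0.00252) for tethered WTp53 and 0.39 ± 0.05 (adjusted p = 7.74e-05) for WTp53. The tethered call was lost without experiment e (adjusted p = 0.0505) and when both sets shared a spread (0.134).

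Within each array the β balance moved toward PRKAB1 in every comparison. PRKAB1 minus PRKAB2 was 2.46, 2.92 and 2.86 with ΔNp53:WTp53 (2.75 ± 0.25, SD) and 2.10, 2.44 and 2.33 with WTp53 (2.29 ± 0.17), against 1.47, 1.48 and 1.55 with vector (1.50 ± 0.04). It was 2.06, 1.92 and 2.08 with tethered WTp53 (2.02 ± 0.09) and 1.42, 1.55 and 1.50 with WTp53 (1.49 ± 0.07), against 1.13, 1.21 and 1.19 with vector (1.18 ± 0.04). No groups overlapped in any of the 6 comparisons. The shift over WTp53 was 0.46 with ΔNp53:WTp53 and 0.53 with tethered WTp53, from unlike parts: PRKAB1 changed by −0.12 and PRKAB2 by −0.58 with ΔNp53:WTp53, and by 0.36 and −0.17 with tethered WTp53. These are descriptions of unequal change, with no test.

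**Figure D2:**
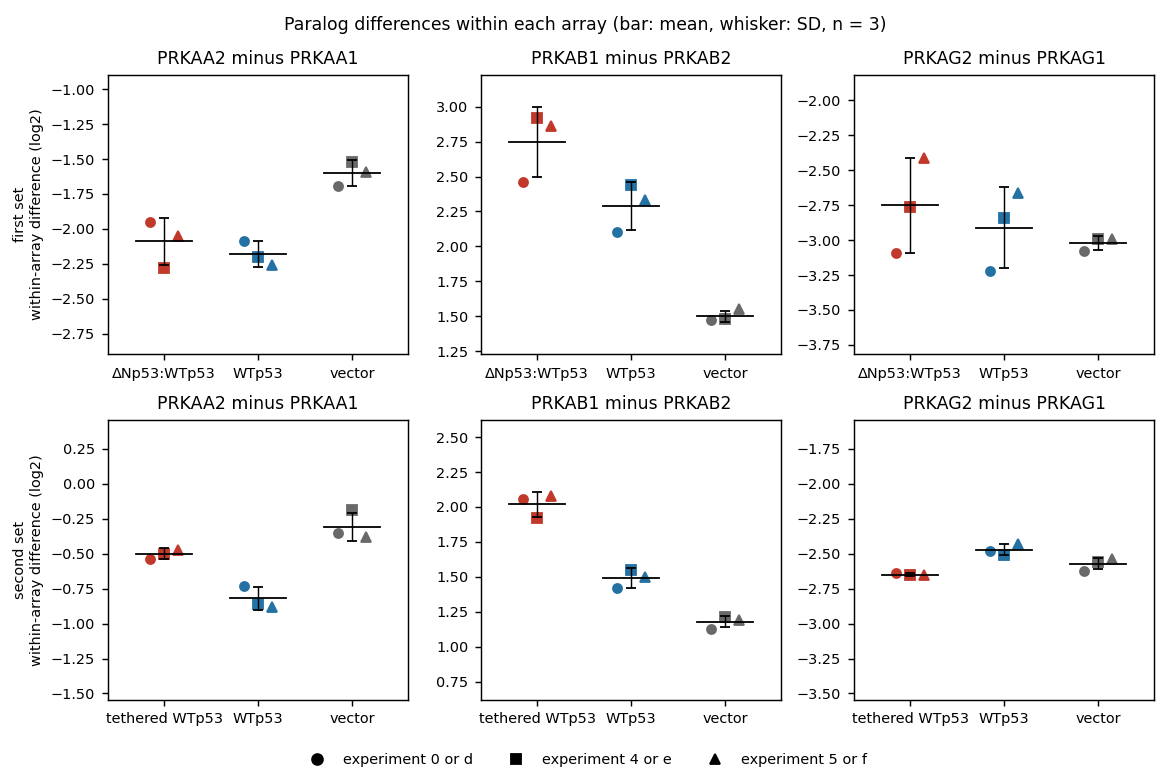
Within-array log2 differences between paralogous subunits (PRKAA2 minus PRKAA1, PRKAB1 minus PRKAB2, PRKAG2 minus PRKAG1) for each array (points, shaped by experiment) with group means (bars) and SD (whiskers, n = 3), first set above and second set below. PRKAB1 minus PRKAB2 averages 2.75 with ΔNp53:WTp53 and 2.29 with WTp53, against 1.50 with vector. PRKAA2 minus PRKAA1 is lower than vector with each construct. PRKAG2 minus PRKAG1 overlaps between all groups of the first set. In the second set its groups do not overlap, with shifts from vector of −0.07 with tethered WTp53 and 0.10 with WTp53.

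The γ subunits moved little. PRKAG1 (γ1, chromosome 12, 49002274 to 49018776) read 10.22, 10.18 and 10.10 with ΔNp53:WTp53 and 10.25, 10.23 and 10.09 with WTp53, against 10.33, 10.43 and 10.36 with vector. All 6 p53 arrays were below vector, but the differences of −0.21 ± 0.08 (limma adjusted p = 0.0735) and −0.18 ± 0.08 (adjusted p = 0.124) missed the threshold, and both passed when the sets shared a spread (0.0107 and 0.0259). In the second set it read 11.51, 11.41 and 11.35 with tethered WTp53 and 11.48, 11.50 and 11.48 with WTp53, against 11.64, 11.55 and 11.59 with vector. Tethered WTp53 was lower by −0.17 ± 0.05 (limma adjusted p = 0.0131), a call lost without experiment e, experiment f or vector array d (0.0636, 0.112 and 0.0536) or after quantile normalization (0.172). WTp53 differed by −0.11 ± 0.05 (adjusted p = 0.116).

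PRKAG2 (γ2, chromosome 7, 151556127 to 151877115), whose inherited variants cause a glycogen storage cardiomyopathy, passed as lower against vector with tethered WTp53 and with no other construct. It read 7.12, 7.42 and 7.68 with ΔNp53:WTp53 and 7.03, 7.40 and 7.43 with WTp53, against 7.25, 7.44 and 7.37 with vector, and all 3 groups overlapped. The differences were 0.06 ± 0.15 (limma adjusted p = 0.824) and −0.07 ± 0.15 (adjusted p = 0.789), with 95% intervals from −0.28 to 0.40 and from −0.41 to 0.27. In the second set it read 8.87, 8.76 and 8.70 with tethered WTp53 and 9.0, 8.99 and 9.05 with WTp53, against 9.02, 8.99 and 9.05 with vector. The tethered arrays were below all others, by −0.24 ± 0.05 from vector (limma adjusted p = 0.00164), and WTp53 and vector arrays overlapped (−0.01 ± 0.05, adjusted p = 0.935). With a spread shared by both sets the tethered call was lost (0.134).

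STK11 (chromosome 19, 1205778 to 1228431), which encodes LKB1, the main AMPK-activating kinase, rose with every construct. It read 8.22, 8.50 and 8.44 with ΔNp53:WTp53 and 8.42, 8.60 and 8.51 with WTp53, against 7.69, 7.52 and 7.58 with vector. The groups were separated from vector by 0.79 ± 0.10 (1.73-fold, limma adjusted p = 0.000291) and 0.91 ± 0.10 (1.88-fold, adjusted p = 0.000147). Within experiments 0, 4 and 5 the ΔNp53:WTp53 difference was 0.53, 0.98 and 0.86. STK11 in the second set read 9.42, 9.40 and 9.42 with tethered WTp53 and 9.33, 9.33 and 9.37 with WTp53, against 8.87, 8.79 and 8.89 with vector. The differences were 0.56 ± 0.04 (1.48-fold, limma adjusted p = 7.37e-07) and 0.49 ± 0.04 (1.41-fold, adjusted p = 4.43e-06). The STK11 calls against vector held under every alternative tried, as did those of PRKAB1.

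CAMKK2 (chromosome 12, 121237692 to 121297819), the calcium-dependent AMPK kinase, did not pass in any comparison with equally weighted arrays. It read 6.33, 6.35 and 6.17 with ΔNp53:WTp53 and 6.30, 6.06 and 5.94 with WTp53, against 6.28, 6.0 and 5.99 with vector. It read 8.29, 8.37 and 8.34 with tethered WTp53 and 8.40, 8.36 and 8.45 with WTp53, against 8.36, 8.23 and 8.33 with vector. Every pair of groups overlapped. The 95% intervals of the difference from vector were −0.07 to 0.46 for ΔNp53:WTp53, −0.26 to 0.28 for WTp53 in the first set, −0.08 to 0.13 for tethered WTp53 and −0.01 to 0.20 for WTp53 in the second set. With array weights the ΔNp53:WTp53 difference was 0.296 and passed (limma adjusted p = 0.0145).

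**Figure D3:**
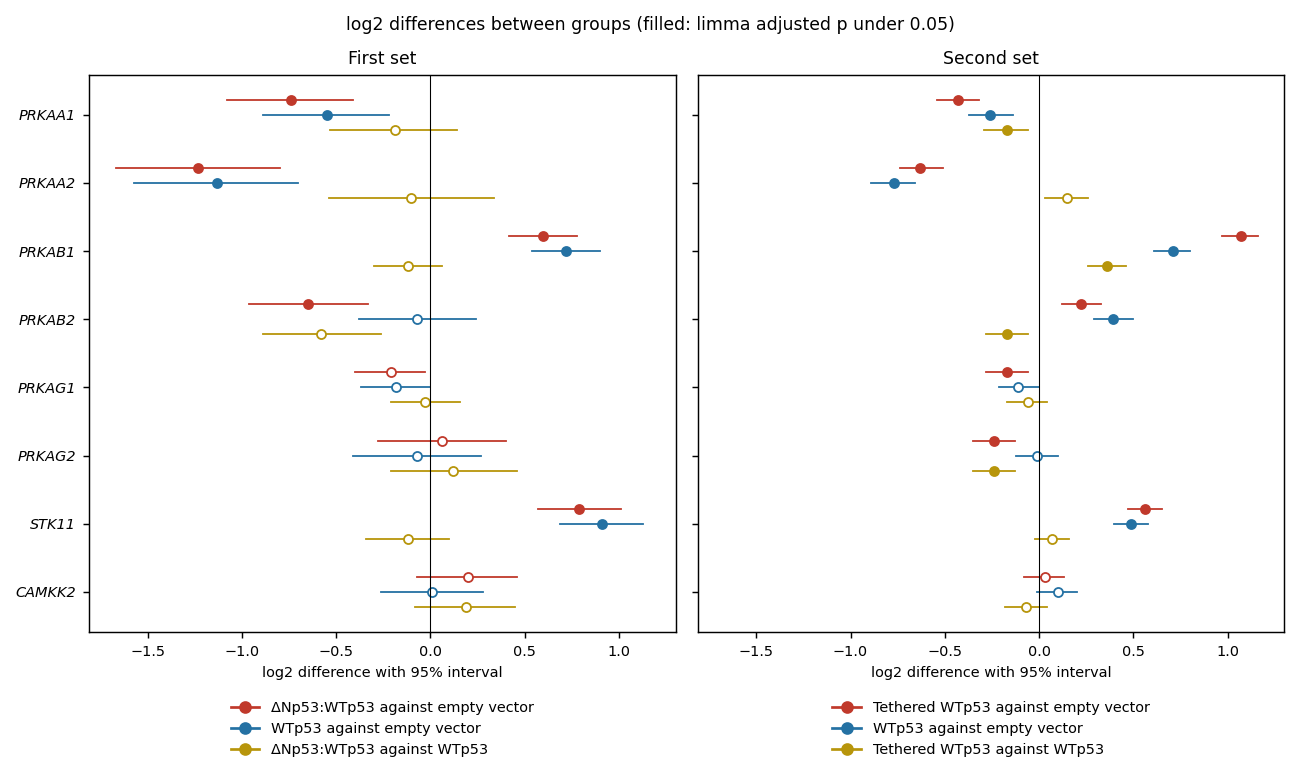
Log2 difference of each of the 8 genes (points, filled where the limma adjusted p was under 0.05, with 95% intervals) in the pairwise comparisons within each set. Against vector, PRKAB1 and STK11 lie above 0 and PRKAA1 and PRKAA2 below it with each construct; ΔNp53:WTp53 against WTp53 is furthest from 0 for PRKAB2 (−0.58), and tethered WTp53 against WTp53 for PRKAB1 (0.36).

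The direct comparison of ΔNp53:WTp53 with WTp53 gave 0 of 8 members past the limma threshold, where 2.44% of all genes passed (1.56% higher, 0.880% lower). PRKAB2 was lower by −0.58 ± 0.14 (1.49-fold, limma adjusted p = 0.064, unadjusted p = 0.00215), in all 3 experiments (−0.37, −0.66 and −0.70 in experiments 0, 4 and 5), and 3.42% of all genes moved further. Experiment numbers pair arrays in the first set, which the reported fit leaves out. With experiment as a replicate block 806 of all genes passed in place of 449, and the adjusted p of PRKAB2 was 0.0366. It was 0.00159 without the ΔNp53:WTp53 array of experiment 0, where the difference was −0.75, and 0.00228 with a spread shared by both sets, so this call depends on the fit. PRKAB2 stayed short of the threshold without experiment 4, without experiment 5 and with the 6 arrays alone, where 1, 0 and 96 of all genes passed. CDKN1A was lower by −0.93 ± 0.26 (limma adjusted p = 0.1) in the same comparison, and its part in the member differences was not tested. The other 7 genes had differences of −0.19 to 0.19. Their 95% intervals reached at most −0.54 (PRKAA2, −0.54 to 0.34) and 0.46 (PRKAG2, −0.21 to 0.46), so a moderate difference between the constructs could have been missed. PRKAB1 arrays did not overlap between ΔNp53:WTp53 and WTp53, as for 20.6% of all genes, but differed by only −0.12 ± 0.08 (limma adjusted p = 0.51).

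Tethered WTp53 against WTp53 gave 4 of 8 members past the threshold (1 higher, 3 lower), beside 32.4% of all genes (14.9% higher, 17.5% lower), and arrays did not overlap for 6 of 8, beside 42.6% of all genes. PRKAB1 was higher by 0.36 ± 0.04 (1.28-fold, limma adjusted p = 0.000209), in experiments d, e and f by 0.44, 0.27 and 0.37, while CDKN1A differed by 0.09 ± 0.06 (adjusted p = 0.239). PRKAG2 was lower by −0.24 ± 0.05 (limma adjusted p = 0.00427), PRKAA1 by −0.17 ± 0.05 (adjusted p = 0.0258) and PRKAB2 by −0.17 ± 0.05 (adjusted p = 0.0208). PRKAA2 was 0.15 ± 0.05 higher with tethered WTp53 (adjusted p = 0.0522), with arrays that did not overlap, and passed with array weights (0.0361), quantile normalization (0.0382), robust and trended eBayes (0.0413) and the dimmest genes left out (0.0371). The PRKAB1 call held under every alternative tried, whereas the calls of PRKAG2, PRKAA1 and PRKAB2 were lost when both sets shared a spread (0.236, 0.4 and 0.367) and without experiment e (0.0534, 0.134 and 0.0526) or f (0.0569, 0.175 and 0.123).

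Effects could be set across the sets only as differences of differences, with the arrays weighted by set. The WTp53 effect over vector differed between the sets for 2 of 8 members, beside 13.2% of all genes (6.25% with a positive and 7.00% with a negative difference). STK11 rose by 0.91 in the first set and 0.49 in the second, a difference of 0.42 ± 0.10 (limma adjusted p = 0.0128), and PRKAB2 changed by −0.07 and 0.39, a difference of −0.46 ± 0.14 (adjusted p = 0.0349). Both are measured on separately normalized sets with unlike ranges: the median absolute WTp53 difference over all genes was 0.20 in the first set and 0.11 in the second, and that of CDKN1A 4.62 and 3.13. The STK11 call was lost without the vector or the WTp53 array of experiment 4 (0.0556 and 0.0654), and the PRKAB2 call in several of the reduced fits. The change from WTp53 to ΔNp53:WTp53 differed from the change from WTp53 to tethered WTp53 for 1 of 8 members, beside 2.51% of all genes (1.31% positive, 1.20% negative): PRKAB1 was −0.12 in the first and 0.36 in the second, a difference of −0.48 ± 0.09 (limma adjusted p = 0.0113), lost without the WTp53 array of experiment 4 (0.0696).

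Around the 8 genes, partners and other upstream kinases were followed in a list of 7 (PRKAG3, CAB39, CAB39L, STRADA, STRADB, CAMKK1, MAP3K7), all measured. STRADA and STRADB are pseudokinases that hold LKB1 in its active complex, and both rose with each construct. CAB39 and CAB39L of the same list did not pass as higher with any. With ΔNp53:WTp53, WTp53, tethered WTp53 and WTp53 of the second set, CAB39 differed from vector by 0.03, 0.08, 0.04 and 0.06. CAB39L differed by −0.31, −0.23, −0.36 and 0.05, and only the tethered value passed (limma adjusted p = 0.00196). STRADB was higher than vector by 0.95 ± 0.14 (limma adjusted p = 0.000654) with ΔNp53:WTp53, 0.86 ± 0.14 (0.00119) with WTp53, 0.74 ± 0.05 (6.57e-07) with tethered WTp53 and 0.53 ± 0.05 (1.87e-05) with WTp53 in the second set. STRADA was higher by 0.33, 0.49, 0.41 and 0.23 in the same order, all past the limma threshold. MAP3K7 (TAK1), another kinase reported upstream of AMPK, was lower by −0.48, −0.34, −0.45 and −0.19, also all past it. CAMKK1, a relative of CAMKK2, rose with ΔNp53:WTp53 (0.65 ± 0.14, limma adjusted p = 0.00481) and tethered WTp53 (0.36 ± 0.06, adjusted p = 0.000366), and had 0.22 (0.288) and 0.10 (0.229) with WTp53. Genes of the lists are named in all 4 comparisons with vector once they were named in any, so that their values stand side by side. In all, 4, 3, 5 and 3 of 7 passed in the ΔNp53:WTp53, WTp53, tethered WTp53 and second WTp53 comparisons with vector, beside 36.1%, 31.8%, 47.8% and 36.8% of all genes, and list medians were 0.03, 0.08, 0.12 and 0.06, beside 0.01, 0.02, 0.00 and −0.02 over all genes.

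Kinases related to AMPK that LKB1 also activates were measured for 11 of 12 listed (NUAK1, NUAK2, SIK2, SIK3, MARK1, MARK2, MARK3, MARK4, BRSK1, BRSK2 and SNRK; SIK1 has no probe set with a single symbol). NUAK1 and MARK4 rose with each construct. NUAK1 was higher than vector by 1.88 ± 0.20 (3.67-fold, limma adjusted p = 0.000113) with ΔNp53:WTp53, 1.76 ± 0.20 (0.000177) with WTp53, 1.96 ± 0.04 (1.44e-10) with tethered WTp53 and 1.48 ± 0.04 (2.71e-09) with WTp53 in the second set. MARK4, a microtubule affinity regulating kinase, was higher by 1.36, 1.35, 1.64 and 0.97 in that order, all past the threshold. SNRK was lower by −0.52, −0.58, −0.44 and −0.39, also past it each time. In the 4 comparisons with vector 4, 2, 4 and 2 of 11 list members were higher, beside 15.7%, 15.2%, 21.6% and 17.9% of all genes, and 4, 5, 4 and 6 lower, beside 20.3%, 16.6%, 26.2% and 18.9%. The list medians were −0.07, −0.27, 0.05 and −0.15, beside 0.01, 0.02, 0.00 and −0.02 over all genes.

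NUAK2 was the only gene of the 4 lists to pass for ΔNp53:WTp53 against WTp53, where it was higher by 0.98 ± 0.12 (1.97-fold, limma adjusted p = 0.00661) and 0.619% of all genes moved further. It averaged 7.15 ± 0.22 with ΔNp53:WTp53 and 6.17 ± 0.14 with WTp53, against 6.66 ± 0.11 with vector (SD, n = 3 each). It was thus higher than vector with ΔNp53:WTp53 (0.49 ± 0.12, limma adjusted p = 0.0114) and lower with WTp53 (−0.49 ± 0.12, adjusted p = 0.0128). In the second set it averaged 9.23 ± 0.14 with tethered WTp53 and 8.43 ± 0.04 with WTp53, against 8.88 ± 0.00 with vector, again higher with the tethered construct (0.35 ± 0.06, limma adjusted p = 0.000655) and lower with WTp53 (−0.45 ± 0.06, adjusted p = 0.000178). The tethered difference from WTp53 was 0.80 ± 0.06 (limma adjusted p = 2.09e-05). The ΔNp53:WTp53 call against WTp53 was lost without experiment 4 and without experiment 5, where 0 of all genes passed as higher. NUAK2 was singled out in some of these comparisons after its values were seen.

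Substrates and effectors of AMPK were measured for 15 genes (ACACA, ACACB, TSC2, RPTOR, ULK1, EEF2K, PFKFB2, PFKFB3, TBC1D1, TBC1D4, CRTC2, FOXO3, MFF, PPARGC1A, SREBF1). PFKFB3, a glycolytic activator, was higher than vector by 2.16 ± 0.32 (4.47-fold, limma adjusted p = 0.000703) with ΔNp53:WTp53, 1.72 ± 0.32 (0.00252) with WTp53, 0.94 ± 0.05 (3.49e-08) with tethered WTp53 and 0.76 ± 0.05 (3.89e-07) with WTp53 in the second set. ULK1, the kinase that starts autophagy, was higher by 0.88, 0.75, 0.33 and 0.35, and PPARGC1A, a coactivator of mitochondrial biogenesis, by 1.08, 0.81, 0.44 and 0.32, each past the limma threshold. PFKFB2 was lower by −0.56, −0.46, −0.51 and −0.45, past it too. RPTOR, the raptor subunit of mTORC1, was lower by −0.59 ± 0.05 (limma adjusted p = 4.91e-06) with tethered WTp53 and −0.26 ± 0.05 (adjusted p = 0.00291) with WTp53 in the second set, and had −0.05 (0.759) and −0.14 (0.362) in the first. Of the 15 effectors 6, 4, 7 and 5 were higher, beside 15.7%, 15.2%, 21.6% and 17.9% of all genes, and 1, 2, 4 and 4 lower, beside 20.3%, 16.6%, 26.2% and 18.9%. Their medians were 0.21, 0.27, 0.08 and 0.01, beside 0.01, 0.02, 0.00 and −0.02 over all genes.

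Regulators of AMPK were measured for 12 of 13 listed (SESN1, SESN2, SESN3, FLCN, FNIP1, FNIP2, AXIN1, PPM1A, PPM1E, PPP2CA, UBE2O, TRIM28; LAMTOR1 has no probe set with a single symbol). SESN1, a stress-induced activator of AMPK and inhibitor of mTORC1, rose most: by 2.83 ± 0.13 (7.09-fold, limma adjusted p = 2.87e-06) with ΔNp53:WTp53, 3.32 ± 0.13 (1.33e-06) with WTp53, 2.43 ± 0.04 (8.18e-11) with tethered WTp53 and 2.82 ± 0.04 (8.01e-11) with WTp53 in the second set. FNIP1, which partners folliculin, was lower by −0.97, −1.27, −1.16 and −0.96, and PPM1A, a phosphatase that can act on AMPK, higher by 1.09, 0.92, 0.65 and 0.72, each past the threshold. SESN2 was higher by 0.75 ± 0.17 with WTp53 (limma adjusted p = 0.00636), 0.37 ± 0.05 with tethered WTp53 (8.56e-05) and 0.65 ± 0.05 with WTp53 in the second set (2.66e-06), and had 0.36 ± 0.17 (0.122) with ΔNp53:WTp53. Against WTp53, SESN1 differed by −0.49 ± 0.13 with ΔNp53:WTp53 (limma adjusted p = 0.0839) and was lower by −0.39 ± 0.04 with tethered WTp53 (adjusted p = 0.000148). Of the 12 regulators 4, 4, 5 and 4 were higher, beside 15.7%, 15.2%, 21.6% and 17.9% of all genes, and 3, 4, 4 and 3 lower, beside 20.3%, 16.6%, 26.2% and 18.9%. Their medians were 0.19, 0.14, 0.06 and 0.04, beside 0.01, 0.02, 0.00 and −0.02 over all genes.

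**Figure D4:**
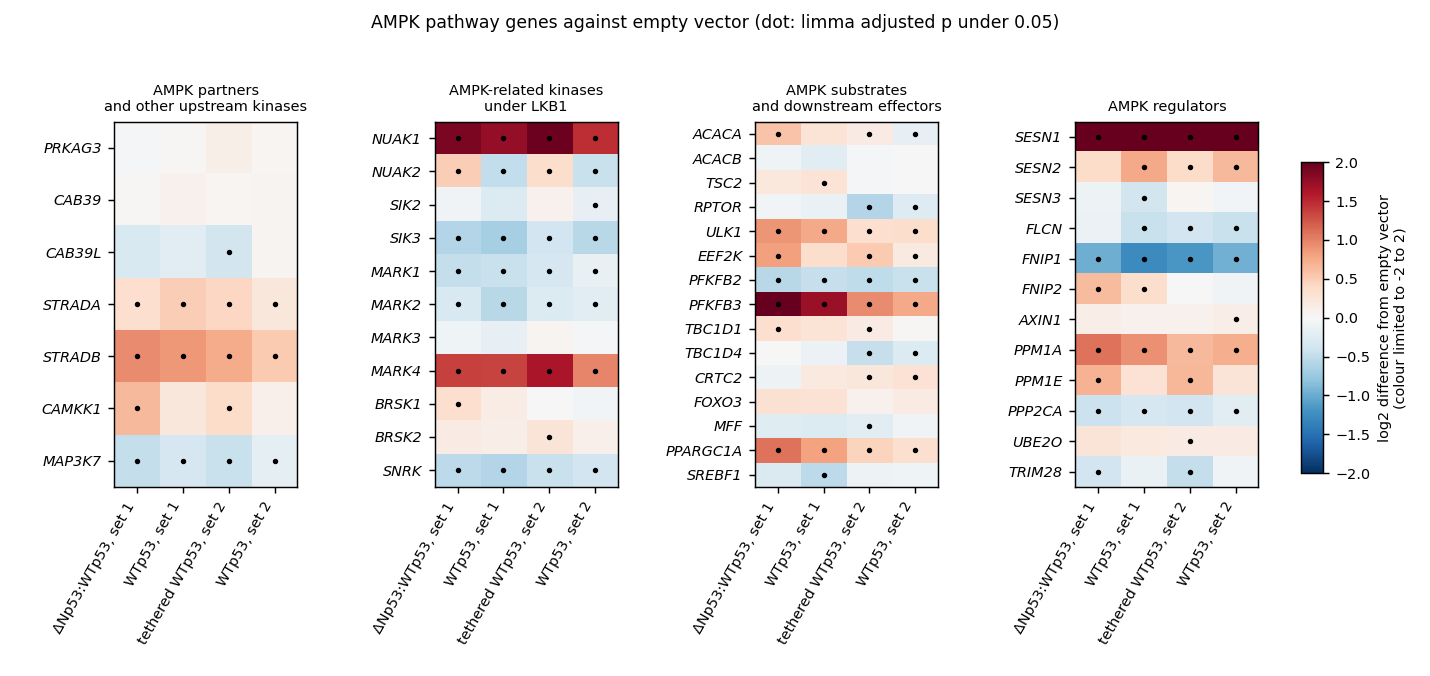
Log2 differences from empty vector for the 4 lists of AMPK pathway genes (rows) with each construct (columns; colour, limited to −2 to 2), with a dot where the limma adjusted p was under 0.05. STRADA, STRADB, NUAK1, MARK4, PFKFB3, ULK1, PPARGC1A, SESN1 and PPM1A are higher with each construct, and NUAK2 is higher with ΔNp53:WTp53 and tethered WTp53 and lower with WTp53 in both sets.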

How the data were processed

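The authors deposited 1 table of log2 intensities for all 18 arrays, made with RMA, which corrects background, normalizes across arrays and summarises each probe set, in the Expression Console software, per the submitters' processing notes; versions are not given in the sources used here. It held 33297 probe sets, of which the platform's probe table pairs 19460 with 1 symbol, 1754 with several and 12083 with none listed. Probe sets with 1 symbol were kept, and for 769 genes with several the brightest by mean, leaving 18417 genes without a filter on dim ones. Groups came from array titles.

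Each set was fitted alone in R 4.3.3 with limma 3.58.1 (lmFit, eBayes, 1 mean per group, 6 residual degrees of freedom), two-sided, with Benjamini-Hochberg adjustment over all genes at 0.05. Earlier results had given the sets unequal spread. Differences of effects used all 18 arrays with arrayWeights by set. An exact permutation test of 3 arrays against 3 cannot go below p = 0.1, so none was used. The script was tested on simulated data. The 8 members, the 4 pathway lists and the marker lists were chosen with earlier results of these data known. The rule for named genes was all members, and of each list at most 4 genes with the smallest p per comparison among those that passed. To set values side by side, some appear in further comparisons, and values of CAB39 and CAB39L are given outside the rule. The probe set of the transfected gene is not reported.

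Residuals of same-experiment arrays correlated above 0.1 in 9 of 9 pairs of the first set (0.11 to 0.57). Of its pairs from different experiments 6 of 18 did (−0.50 to 0.35), so its numbers were taken to pair arrays. In the second set 2 of 9 same-experiment pairs did (−0.04 to 0.13), and 1 of 18 others (−0.21 to 0.16). Promoter sequences are RefSeq's on GRCh38.p14, matched by symbol for 8 of 8 genes. Precision is limited by the 3 arrays in each group.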

Additional observations from a re-analysis of the deposited data

Results flagged for a closer look

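Effects that differed between the sets by the limma test of the difference itself, with adjusted p over all genes, were found for 3 of the 8 members. The share of all genes that passed was 13.2% for the WTp53 effect and 2.51% for the change from WTp53. The PRKAB2 response to WTp53 was −0.07 in the first set and 0.39 in the second, a difference of −0.46 ± 0.14 (adjusted p = 0.0349). The STK11 response to WTp53 was 0.91 in the first set and 0.49 in the second, a difference of 0.42 ± 0.10 (limma adjusted p = 0.0128). The PRKAB1 change from WTp53 was −0.12 with ΔNp53:WTp53 and 0.36 with tethered WTp53, a difference of −0.48 ± 0.09 (limma adjusted p = 0.0113). Each of the 3 calls was lost in a fit without a single array. Without the first-set vector array of experiment 4 the limma adjusted p was 0.0556 for STK11 and 0.102 for PRKAB2. Without the WTp53 array of experiment 4 it was 0.0696 for PRKAB1. Set and normalization cannot be told apart in these differences. Groups of 3 arrays are too small for a test of single outlying arrays.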

How the results depend on the processing

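Of 1408 member values recomputed under an alternative, 1304 kept their direction and side of the threshold, 47 lost a call, 22 gained one and 35 changed sign; no value that changed sign had been called, and the cause of each change was not tested beyond the smaller number of arrays where arrays were left out. Members called for ΔNp53:WTp53 against vector numbered 2 without experiment 4 and 3 without experiment 5 (5 as reported). They numbered 7 with array weights and 6 with the shared spread, with robust eBayes or with medians centred. Of 18417 genes, 9641, 8613, 6664 and 6655 passed in these last 4 settings (6640 as reported). For WTp53 against vector in the first set members numbered 2 without experiment 5 and 5 with array weights or the shared spread (4 as reported, 3 to 4 leaving out single arrays). Of all genes, 8215 passed there with array weights and 8052 with the shared spread (5862 as reported). For ΔNp53:WTp53 against WTp53 the count was 1, PRKAB2, with a spread shared over 18 arrays, with experiment as a replicate block, with array weights, after quantile normalization and without experiment 0 (0 otherwise; 0 to 1 leaving out single arrays). For tethered WTp53 against WTp53 it was 1 with the shared spread and without experiment e or f (4; 3 to 5 leaving out single arrays). For the WTp53 effect between the sets it was 1 with no weights (2; 0 to 2), and for ΔNp53:WTp53 against tethered WTp53 relative to WTp53 it was 0 to 3 (1). Signs turned for PRKAG2 in ΔNp53:WTp53 against vector (−0.072 without experiment 5; −0.081 to 0.199 leaving out single arrays), in WTp53 against vector of the first set (0.007 without experiment 0; −0.138 to 0.058) and of the second (0.003 with medians centred; −0.025 to 0.008), in ΔNp53:WTp53 against WTp53 (−0.013 to 0.267) and in the WTp53 effect between sets (−0.131 to 0.065). They turned for CAMKK2 in WTp53 against vector of the first set (−0.037 with medians centred, −0.015 without experiment 4; −0.089 to 0.105), in tethered WTp53 against vector (−0.003 with medians centred, −0.030 without experiment e; −0.012 to 0.053) and in the WTp53 effect between sets (−0.185 to 0.008). They also turned for PRKAA2 and PRKAG1 in ΔNp53:WTp53 against WTp53 (0.034 without experiment 4 and −0.338 to 0.020 for PRKAA2; −0.080 to 0.006 for PRKAG1), for PRKAB1 in the WTp53 effect between sets (−0.026 to 0.037), and for PRKAA1 (−0.183 to 0.125) and PRKAG1 (−0.017 to 0.079) in ΔNp53:WTp53 against tethered WTp53.

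Over all genes, calls for ΔNp53:WTp53 against WTp53 numbered 449, against 2693 with the shared spread, 96 with the 6 arrays alone, 806 with the replicate block, 4522 with array weights, 2461 without experiment 0, and 1 and 0 without experiment 4 or 5. The shared spread gave 3603 calls for WTp53 against vector in the second set (6769 otherwise) and 1855 for tethered WTp53 against WTp53 (5970), and the tethered count was 3236 and 3708 without experiment d or e. Without experiment 4 or 5, ΔNp53:WTp53 against vector had 1871 and 2599 calls (6640) and WTp53 against vector 2111 and 2517 (5862). Relative to WTp53, ΔNp53:WTp53 against tethered WTp53 had 705 calls with the replicate block (463). Leaving out single arrays took that count to between 131 and 980, and the count for the WTp53 effect between sets (2440) to between 1009 and 3686. The block changed no member's call other than that of PRKAB2, and residuals of same-experiment arrays in the second set correlated weakly (−0.04 to 0.13).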

Other observations

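Over the 18 arrays, after centring each gene on its mean within its set, the genes whose values ran most like PRKAB1 were ZNF79 (r = 0.987), DDB2 (0.984), a DNA damage recognition gene, and MID1IP1 (0.983). Their differences from vector with ΔNp53:WTp53, WTp53, tethered WTp53 and WTp53 of the second set were 1.24, 1.35, 1.75 and 1.05 for ZNF79, 1.45, 1.58, 2.01 and 1.52 for DDB2, and 1.27, 1.50, 2.23 and 1.45 for MID1IP1. For STK11 they were PANK1 (r = 0.993), a kinase of coenzyme A synthesis, DSE (0.993) and SMTN (0.992). PANK1 differed from vector by 1.78, 1.97, 1.29 and 1.09. For PRKAA2 they were UBXN4 (0.981), ZNF462 (0.981) and HEATR5B (0.979), and ZNF462 differed from vector by −1.33, −1.23, −0.69 and −0.73. These likenesses describe arrays that fall into 6 groups and share the contrast with vector, so they carry no p.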
